A study of Equus asinus with 12 samples.

Results

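The genes that encode the eukaryotic translation initiation factors were followed in skeletal muscle of the donkey. They were taken by name, as every row of the deposited expression table whose gene name begins with EIF and a digit, keeping for each name the row with the highest mean level over the 12 libraries. Of the 27084 loci in the table, 51 rows met this rule and carried 45 names, 43 for initiation factors, their exchange factor and the kinases that act on them, and 2 for inhibitors (EIF4EBP1 and EIF4EBP2), which are described apart. EIF4E, EIF4ENIF1, EIF2AK2 and EIF2AK3 had 2 rows each and EIF2AK4 had 3. Their levels and ratios below are those of the kept row alone. Levels are FPKM, fragments per kilobase of transcript scaled to the mapped fragments of the library, so that genes can be compared with each other per length. A locus was tested if it reached 1 FPKM in at least 3 of the 12 libraries, which 12408 loci did, 39 of the 43 factors and both inhibitors among them.

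The series holds 12 libraries of total RNA from 6 Dezhou donkeys, in 4 groups of 3, namely longissimus dorsi (a back muscle) and gluteal (a rump muscle) of the Sanfen and of the Wutou strain. All animals were labelled as 24 months old, no treatment or genetic change is given for any group, and the donkeys were not labelled by individual. The tissue label was borne out by the defining markers: all 11 listed skeletal muscle genes were detected in every group, with summed levels of 34213 to 45979 FPKM, against at most 1.20 FPKM for 4 lymphocyte genes and 6.39 FPKM for 3 macrophage genes. CD68 and CD163, also on the macrophage list, were not found under their own names, and CD68 shares a merged row with EIF4A1. Of the 11 muscle genes, TNNT3 averaged only 1.27 FPKM. It read 0 in replicate 1 of Sanfen longissimus and in replicate 2 of both Wutou groups. Summed levels were 41.6 to 76.7 FPKM for endothelial, 82.8 to 181 FPKM for fibroblast and 6.47 to 14.6 FPKM for adipocyte genes, and the part of these cells in the results was not tested. In whole muscle, a lower value can come from fewer cells of a type or from less RNA per cell, and the data cannot tell these apart.

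As background, translation begins when eIF2 brings the initiator tRNA to the small ribosomal subunit, helped by eIF1, eIF1A, eIF3 and eIF5. The cap-binding complex eIF4F (eIF4E on the cap, the scaffold eIF4G and the helicase eIF4A) brings in the mRNA, and eIF5B then joins the large subunit. The pathway has a pair of well-known control points: kinases that phosphorylate the eIF2 alpha subunit and thereby block its recycling by eIF2B, and 4E-binding proteins, which hold eIF4E until the kinase complex mTORC1 phosphorylates them. In skeletal muscle both are known for setting the rate of protein synthesis in response to feeding, loading and stress.

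Reads per library are not given in the sources used here, and sums of FPKM ran from 214564 to 319767, so no counting interval is given for a level. The 43 factors summed to 741.5 to 870.2 FPKM in a library, which was 0.247% to 0.398% of all FPKM. By group the sums were 782 ± 34.8 FPKM (longissimus) and 805 ± 56.1 (gluteal) for Sanfen, 842 ± 46.5 (longissimus) and 799 ± 47.3 (gluteal) for Wutou (SD, n = 3 each), so the groups overlapped. Replicate 2 of Sanfen longissimus stood apart: its 76 ribosomal protein genes lay a median 0.73 below their own means on the log2(FPKM + 1) scale, against -0.23 to 0.27 in the other libraries, and its 6 fast-fibre markers lay 0.82 below. In the same library the slow-fibre markers lay a median 0.73 above their means, and the 4 tested adipocyte markers 0.74 above. FABP4, an adipocyte marker, was low there, at 3.80 FPKM against a mean of 5.05. Replicate 1 of Sanfen gluteal also differed in fibre markers, with fast-fibre genes 0.69 below and 6 slow-fibre genes 1.17 above their means. Named differences that move by more than 1.5 times without either of these libraries are given with and without it.

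Among the proteins that find the start codon and form the ternary complex of eIF2, GTP and initiator tRNA, EIF1 had by far the highest level, with a mean of 45.9 FPKM. EIF1 guards the fidelity of start codon choice. It read 34.7, 65.4 and 44.1 FPKM (longissimus) and 46.1, 50.3 and 45.8 FPKM (gluteal) for the Sanfen strain, 38.7, 45.5 and 45.3 FPKM (longissimus) and 46.9, 47.7 and 40.0 FPKM (gluteal) for the Wutou strain. Only replicates 1 and 2 of Sanfen longissimus lay outside 38 to 51 FPKM, one below and one above. Its close paralog EIF1B averaged 0.826 FPKM, reached 1 FPKM in 6 of 12 libraries, and was 31.7 to 338 times lower than EIF1. EIF5, which triggers GTP hydrolysis by eIF2, followed with a mean of 8.69 FPKM and a range of 5.38 to 12.7.

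The eIF2 subunits were not at equal levels. EIF2S3 (gamma, the GTP-binding subunit) averaged 6.51 FPKM, EIF2S2 (beta) 4.92 and EIF2S1 (alpha, the subunit that the stress kinases phosphorylate) 2.94. EIF2S3 exceeded EIF2S1 in all 12 libraries, by 1.64 to 4.71 times, with a median of 2.13. EIF2S2 read 7.24, 2.07 and 4.63 FPKM (longissimus) and 4.85, 4.27 and 3.71 FPKM (gluteal) for the Sanfen strain, 6.26, 3.23 and 3.77 FPKM (longissimus) and 7.46, 7.27 and 4.30 FPKM (gluteal) for the Wutou strain. Replicate 1 was the highest of each group and replicate 2 of Sanfen longissimus the lowest of all, and the groups overlapped. EIF2S1 read 1.72, 2.08 and 3.09 FPKM (longissimus) and 3.87, 3.85 and 2.96 FPKM (gluteal) for the Sanfen strain, 4.27, 1.03 and 3.43 FPKM (longissimus) and 1.97, 3.45 and 3.51 FPKM (gluteal) for the Wutou strain. Its lowest value, in replicate 2 of Wutou longissimus, fell in the same group as its highest.

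EIF2D and EIF2A, proteins that can place initiator tRNA without eIF2, averaged 8.58 and 8.10 FPKM, above each of the eIF2 subunits. EIF1AX, which acts beside EIF1 in scanning, averaged 2.07 FPKM. EIF1AD, named for its eIF1A-like domain, had the lowest mean of all tested factors, 0.765 FPKM. The row named EIF5B averaged 0.373 FPKM and was not tested, but another locus, carrying only a placeholder name, is EIF5B in RefSeq's gene table for the donkey. That locus averaged 2.46 FPKM, with a range of 1.29 to 4.70, so the named row alone does not give the level of EIF5B.

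The 5 subunits of eIF2B, the factor that reloads eIF2 with GTP, were all tested. EIF2B5, the catalytic epsilon subunit, had the highest mean, 7.01 FPKM (5.53 to 8.56), and EIF2B4 (delta) the next, 6.21 FPKM (4.90 to 7.63). EIF2B3, EIF2B2 and EIF2B1 averaged 3.99, 3.96 and 3.52 FPKM. Over the 12 libraries the SD of log2(FPKM + 1) was 0.14 to 0.23 for the 5 genes.

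Of the 4 kinases of eIF2 alpha, 3 were tested. EIF2AK1, which responds to heme shortage, averaged 2.98 FPKM (2.37 to 3.83), EIF2AK4, which senses amino acid shortage, 2.22 FPKM (1.73 to 2.81), and EIF2AK3, the kinase of the endoplasmic reticulum, 1.45 FPKM (0.970 to 1.86). EIF2AK2, the kinase activated by double-stranded RNA, averaged 0.603 FPKM, with a highest value of 0.856, and did not pass the filter. The SD of log2(FPKM + 1) of the 3 tested kinases was 0.14 to 0.16.

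All 11 subunits of eIF3 present under their own names were tested; EIF3C and EIF3M were not analysed here. EIF3 is the scaffold that holds the small subunit ready for the mRNA. Per length its subunits covered a wide range of mean levels, from EIF3I at 101.5 FPKM (86.4 to 125) and EIF3K at 73.2 (50.7 to 98.3) to EIF3A at 7.27 and EIF3J at 1.64. EIF3J, a loosely bound subunit, was 37.2 to 95.2 times below EIF3I. EIF3G, EIF3F and EIF3H averaged 67.0, 44.5 and 20.8 FPKM, and EIF3D, EIF3E, EIF3L and EIF3B lay between 13.3 and 17.2.

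EIF3A, the largest subunit, read 11.1, 6.16 and 6.78 FPKM (longissimus) and 9.62, 7.13 and 6.43 FPKM (gluteal) for the Sanfen strain, 5.20, 4.80 and 5.57 FPKM (longissimus) and 10.5, 6.44 and 7.53 FPKM (gluteal) for the Wutou strain. The 3 Wutou longissimus libraries were the lowest of the 12, and replicate 1 was the highest of each other group. EIF3G, a small subunit with an RNA-recognition motif, read 51.7, 58.1 and 70.8 FPKM (longissimus) and 67.2, 65.2 and 72.3 FPKM (gluteal) for the Sanfen strain, 77.0, 79.6 and 87.5 FPKM (longissimus) and 50.8, 52.2 and 72.2 FPKM (gluteal) for the Wutou strain. Here the same 3 Wutou longissimus libraries were the highest of the 12. The ratio of EIF3G to EIF3A was therefore 14.8 to 16.6 in Wutou longissimus, against 4.67 to 11.2 in the other 9 libraries; these genes were singled out by their p-values, described below, so the ratio is given without a test.

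In the cap-binding group EIF4G2 stood highest, with the highest mean of all 43 factors, 132.6 FPKM. EIF4G2 (DAP5) is the eIF4G relative that lacks the region for binding eIF4E and serves translation that does not start from eIF4E. It read 192, 122 and 125 FPKM (longissimus) and 112, 135 and 104 FPKM (gluteal) for the Sanfen strain, 156, 82.5 and 117 FPKM (longissimus) and 237, 123 and 85.5 FPKM (gluteal) for the Wutou strain. Replicate 1 was the highest library of 3 groups, and the spread within Wutou gluteal was wider than any difference between group means.

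EIF4A2 averaged 67.6 FPKM (51.0 to 89.7) and was the leading helicase. It was 3.21 to 5.63 times above EIF4A3, the paralog that sits in the exon junction complex (mean 15.7 FPKM), and 8.96 to 20.7 times above the row of EIF4A1 (mean 5.65 FPKM). The EIF4A1 row merges that gene with CD68 and MPDU1, so its value is not that of EIF4A1 alone. The labels do not say how reads shared by close copies were assigned, which leaves levels of paralogs such as EIF1 and EIF1B or EIF4A1 and EIF4A2 uncertain to that extent. EIF4B and EIF4H, which stimulate the helicase, averaged 57.8 and 6.14 FPKM.

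EIF4E, the cap-binding protein, read 12.2, 5.11 and 5.28 FPKM (longissimus) and 5.97, 4.87 and 5.10 FPKM (gluteal) for the Sanfen strain, 7.48, 4.23 and 4.84 FPKM (longissimus) and 10.6, 7.69 and 4.05 FPKM (gluteal) for the Wutou strain. Replicate 1 was the highest of each group, and Sanfen longissimus and Wutou gluteal each held one library above 10 FPKM. EIF4E2, a cap-binding relative known as a repressor, averaged 4.25 FPKM, and EIF4E exceeded it in 10 of 12 libraries, by a median ratio of 1.29 over all 12. EIF4ENIF1, which carries eIF4E into the nucleus and to cytoplasmic granules, averaged 2.30 FPKM. EIF4E1B averaged 0.058 FPKM and was not tested. EIF6, which keeps the large subunit from joining early, averaged 10.3 FPKM (7.81 to 14.1). EIF5A2, a paralog of EIF5A, averaged 0.495 FPKM, with no library at 1 FPKM, and was not tested.

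**Figure D1:**
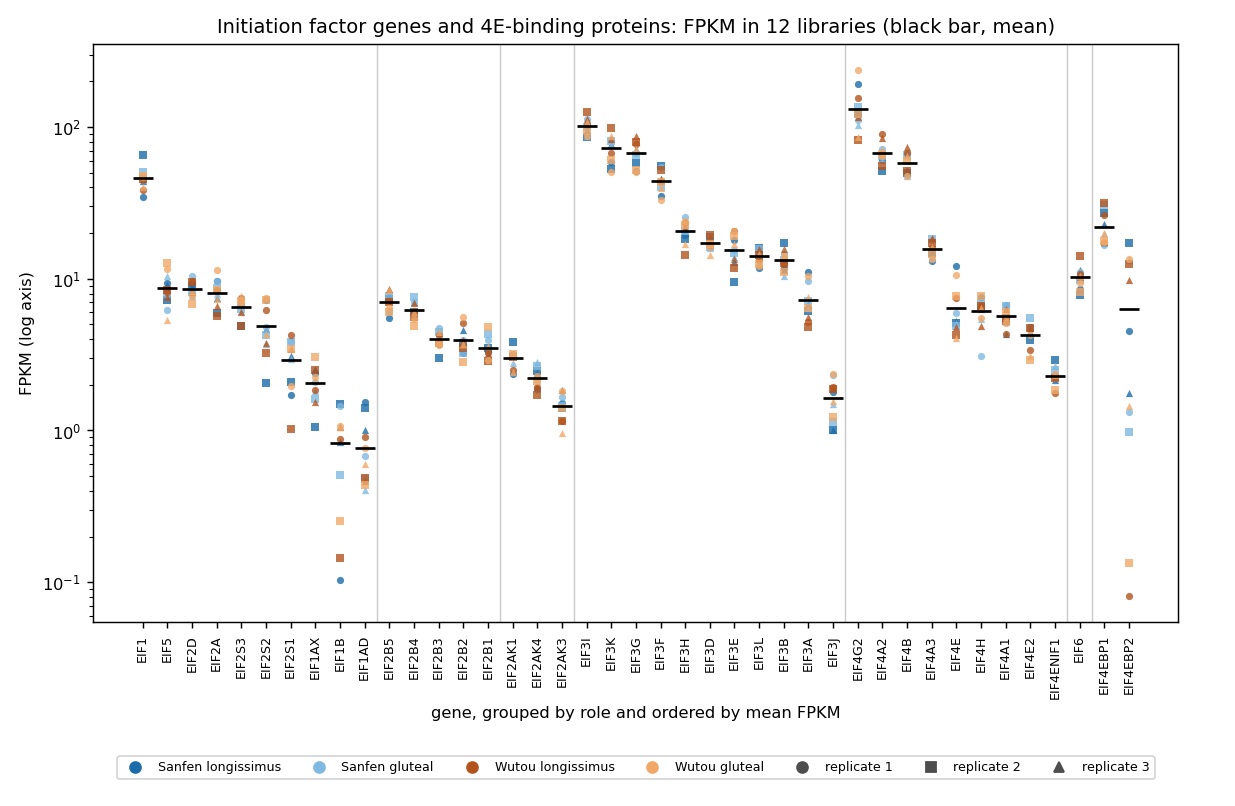
FPKM on a log axis of the 39 tested initiation factor genes and the 2 inhibitors in each of the 12 libraries, grouped by role (vertical lines) and ordered by mean within a role; colours are groups, symbols replicates, and black bars means over 12 libraries. EIF4G2 and EIF3I average over 100 FPKM, and EIF4EBP2 spreads more widely over the libraries than any factor.

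Some family members sit in merged rows whose first name is another gene and so lie outside the rule. The row of FAM131A and EIF4G1 averaged 15.4 FPKM (11.8 to 23.7, highest in replicate 2 of Sanfen longissimus), that of EIF4G3 with an unnamed locus 3.92 FPKM, that of EIF5A with an unnamed locus 13.8 FPKM, and that of FOXP1 and EIF4E3 1.25 FPKM. These are levels of merged loci, and the share of each gene in them is unknown. They nevertheless bear on the order above, since EIF4G1, the main eIF4G of the cap-binding complex, is not among the members.

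The inhibitors differed from each other in how steady they were. EIF4EBP1, the main 4E-binding protein under mTORC1, read 17.1, 27.3 and 23.0 FPKM (longissimus) and 16.8, 30.6 and 19.8 FPKM (gluteal) for the Sanfen strain, 26.2, 31.5 and 17.4 FPKM (longissimus) and 17.5, 17.7 and 20.1 FPKM (gluteal) for the Wutou strain. It exceeded EIF4E in all 12 libraries, by 1.40 to 7.45 times with a median of 3.74, and its groups overlapped. EIF4EBP2, its paralog, read 4.50, 17.1 and 1.76 FPKM (longissimus) and 1.32, 0.972 and 13.3 FPKM (gluteal) for the Sanfen strain, 0.0808, 12.6 and 9.75 FPKM (longissimus) and 13.5, 0.133 and 1.45 FPKM (gluteal) for the Wutou strain. Every group held at least one library at 12.6 FPKM or more and at least one at 1.76 FPKM or less, a 212-fold range over all libraries that followed neither strain nor muscle. Its SD of log2(FPKM + 1) was 1.53, and 0.484% of the tested loci had a larger one; no cause was tested. The merged row of EIF4EBP3 with an unnamed locus averaged 4.37 FPKM, with a range of 3.45 to 5.17.

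**Figure D2:**
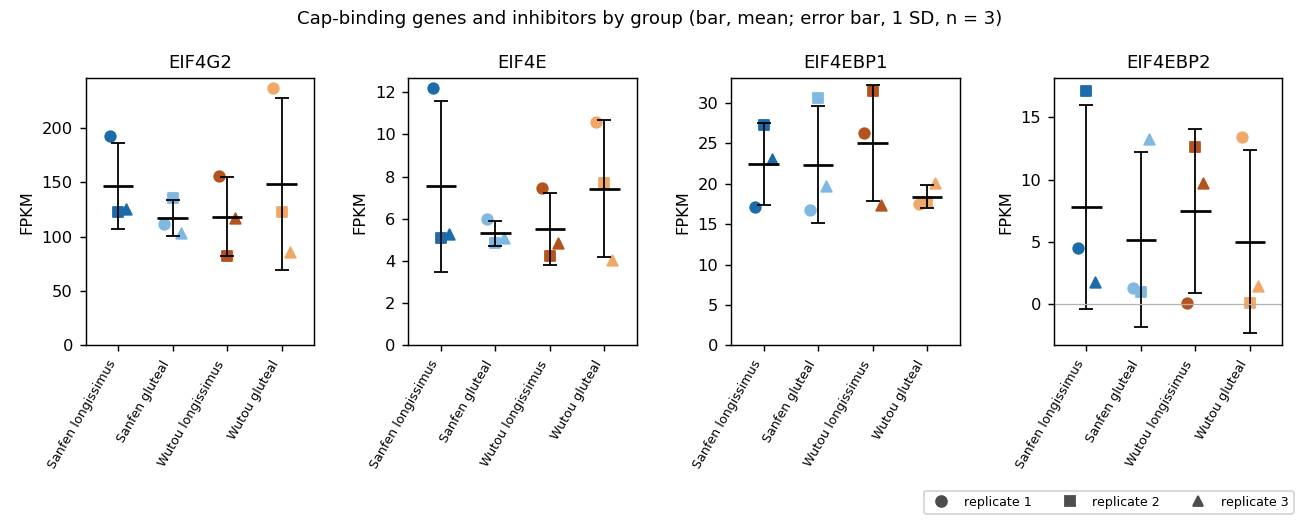
FPKM of EIF4G2, EIF4E, EIF4EBP1 and EIF4EBP2 by group; each symbol is 1 library, horizontal bars are means and error bars 1 SD (n = 3). Replicate 1 of Sanfen longissimus (12.2 FPKM) and of Wutou gluteal (10.6 FPKM) lead for EIF4E, and EIF4EBP2 runs from 0.0808 to 17.1 FPKM with high and low libraries in each group.

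In the median the factors varied somewhat less between libraries than all tested loci. The median SD of log2(FPKM + 1) over 12 libraries was 0.22 for the 39 factors, 0.28 for all 12408 tested loci and 0.29 for the 2625 loci with a mean FPKM between the lower and upper quartiles of the factors (3.74 to 16.4); these are descriptions without a test. The 10 start site and ternary complex genes alone had a median of 0.28, no lower than that of all tested loci. EIF3D (0.13), EIF4ENIF1 (0.14) and EIF3L (0.14) varied least, and EIF4E (0.44), EIF2S2 (0.44), EIF4G2 (0.44) and EIF2S1 (0.42) most. Extreme values gathered in a few libraries. Replicate 2 of Sanfen longissimus was the highest of the 12 for 7 factors and the lowest for 8, and replicate 2 of Wutou longissimus the lowest for 8. Replicate 1 of Sanfen gluteal lay above the mean for 31 of 39 factors, and the median of all tested loci was raised there as well, by 0.13 on the log2 scale against 0.12 for the factors.

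**Figure D3:**
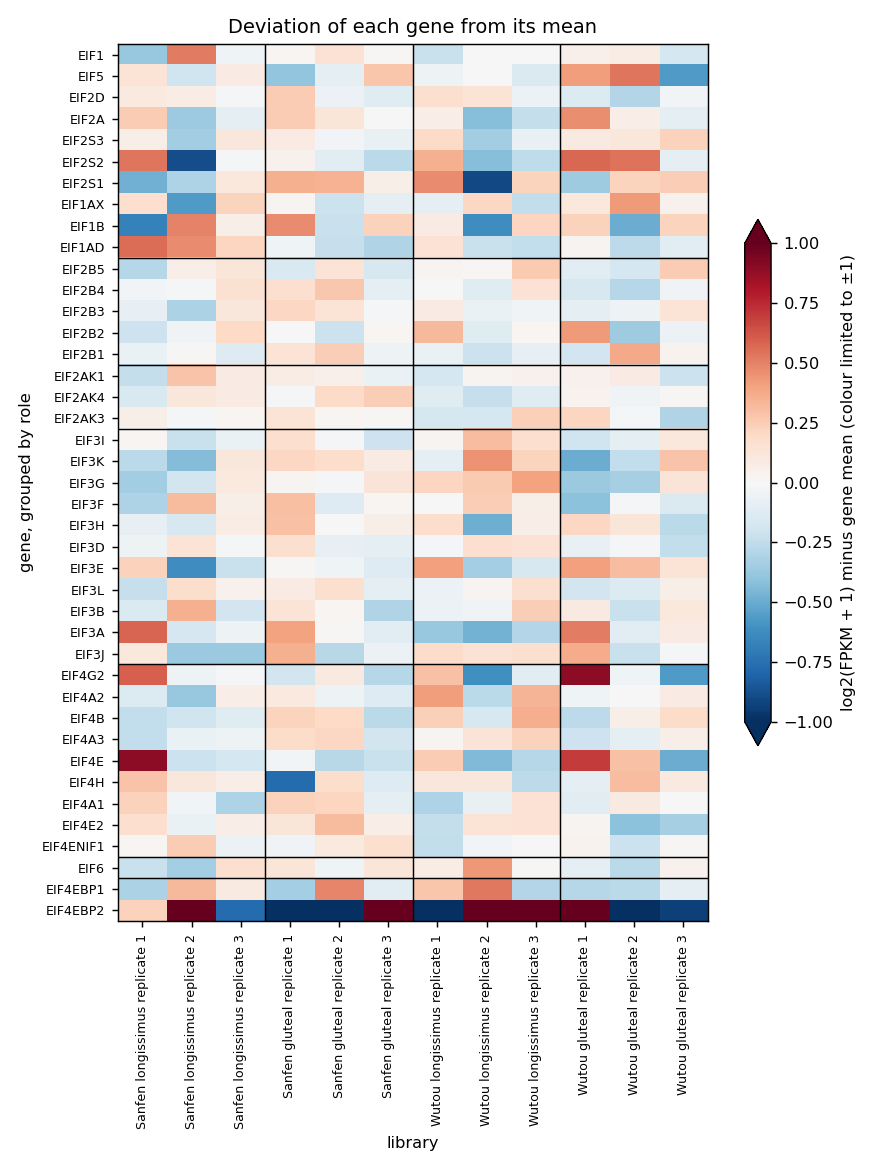
Deviation of each gene's log2(FPKM + 1) from its own mean in the 12 libraries (columns, in group order; rows are genes grouped by role; colours saturate at 1 in either direction). EIF4E, EIF4G2, EIF3A and EIF2S2 are raised together in replicate 1 of Sanfen longissimus and replicate 1 of Wutou gluteal, where EIF3G and EIF3K are low.

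No initiation factor differed between muscles or strains after adjustment. Differences were tested with limma on log2(FPKM + 1) in 1 linear model over the 4 groups, with Benjamini-Hochberg adjustment over all 12408 loci and a threshold of 0.05, for each muscle difference, each strain difference, their averages and their interaction. In all 7 comparisons limma called 0 of the 39 factors and 0 of the 2 inhibitors. Few loci of any kind were called, so the members' count of 0 is close to the background: 0.0242% of loci between muscles in Sanfen, 0% in Wutou, 0% averaged over strains, 0.0161% between strains in longissimus, 0.00806% in gluteal, 0% averaged over muscles and 0.00806% for the interaction. The 95% intervals of single factors reached in the median 0.45 to either side on the log2 scale in the 4 comparisons of 3 against 3 libraries, 0.32 for the muscle average, 0.34 for the strain average and 0.64 for the interaction. The labels do not say which libraries came from the same donkey, and the p-values measure the spread between these libraries.

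Between gluteal and longissimus muscle of Sanfen, the factors were near zero on balance: 26 of 39 were higher and 13 lower in gluteal, with a median log2 difference of 0.05 against 0.08 for all loci. At an unadjusted p under 0.05, limma listed 1 factor, EIF1AD, against 3.57% of all loci, and the groups did not overlap for that 1 factor, against 7.54% of loci. EIF1AD read 1.55, 1.41 and 1.01 FPKM in Sanfen longissimus and 0.678, 0.476 and 0.407 in Sanfen gluteal. All 3 longissimus libraries were above all 3 gluteal ones, a log2 difference of -0.61 ± 0.17 (SE; adjusted p = 1 by limma). It passed the filter on low values only through Sanfen longissimus, where its 3 libraries are the only ones at 1 FPKM. A locus kept in this way had to be lower in Sanfen gluteal and in Wutou longissimus than in Sanfen longissimus. The averages and the interaction of EIF1AD given below include these libraries too, so the filter favoured their direction without fixing it. With a pseudocount of 0.1 in place of 1 the difference between the muscles of Sanfen was -1.20. Next by p came EIF4H, with a log2 difference of -0.40 (95% interval -0.90 to 0.11), and EIF2S1, with 0.48 (-0.21 to 1.18). EIF4H rested on replicate 1 of Sanfen gluteal, at 3.11 FPKM against 5.41 and 6.94 in the other two, and its difference was -0.13 without that library and -0.61 without replicate 2. Replicate 1 of Sanfen gluteal is a library with raised slow-fibre markers, and their part in the difference was not tested.

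In Wutou the median difference between muscles was 0.00 over the factors, 21 higher and 18 lower in gluteal, against 0.05 over all loci. Of the eIF3 genes 8 of 11 were lower in gluteal, with a median of -0.13, and none passed the test. The 6 fast-fibre markers summed to 16752 to 18406 FPKM in Wutou longissimus and 11636 to 17650 in Wutou gluteal, and the 6 slow-fibre markers to 1932 to 3474 and 2001 to 2318. Their part in the values of the eIF3 genes was not tested. At an unadjusted p under 0.05 there were 2 factors, against 5.68% of loci, both of eIF3 and in opposite directions. EIF3G averaged 81.3 ± 5.45 FPKM in longissimus and 58.4 ± 11.99 in gluteal (SD, n = 3), a log2 difference of -0.49 ± 0.20 (SE; adjusted p = 0.87 by limma). EIF3A averaged 5.19 ± 0.384 and 8.15 ± 2.09 FPKM, a log2 difference of 0.54 ± 0.24 (adjusted p = 0.87 by limma). The third by p, EIF2A, differed by 0.35 (95% interval -0.12 to 0.82), and by 0.19 without replicate 1 of Wutou gluteal. Groups did not overlap for 4 of 39 factors, against 12.9% of loci: EIF3A and EIF2AK4 higher in gluteal, EIF3G and EIF3F lower. EIF3F read 44.2, 52.3 and 45.8 FPKM in longissimus and 32.9, 43.2 and 39.7 in gluteal. EIF3A without replicate 1 of Wutou gluteal differed by 0.37.

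Averaged over strains, 20 factors were higher and 19 lower in gluteal, with a median of 0.00 against 0.07 for all loci. EIF1AD differed by -0.31 (adjusted p = 0.75 by limma) and was the 1 factor at an unadjusted p under 0.05, against 6.56% of loci. The filter had fixed the direction of the Sanfen part of this average only. In Wutou EIF1AD averaged 0.619 FPKM in longissimus and 0.601 in gluteal. With a pseudocount of 0.1 the averaged difference was -0.60. EIF2A followed with 0.27 (95% interval -0.06 to 0.60) and EIF2B1 with 0.18 (-0.07 to 0.43), which were 0.18 and 0.10 after rescaling by the median of ratios. EIF2B1 was 0.11 without replicate 2 of Wutou gluteal or with quantile normalization.

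Between the strains in longissimus, 20 factors were higher and 19 lower in Wutou, with a median of 0.01 against -0.06 for all loci. Groups did not overlap for 6 of 39 factors, against 11.8% of loci: EIF3G, EIF3J, EIF4A3 and EIF3I higher in Wutou, and EIF1AD and EIF3A lower. EIF1AD, for which the same Sanfen libraries carried it past the filter, was the 1 factor at an unadjusted p under 0.05, against 5.52% of loci, with -0.52 ± 0.17 (SE; adjusted p = 0.85 by limma), and with -1.02 at a pseudocount of 0.1. EIF3G averaged 60.2 ± 9.72 FPKM among Sanfen and 81.3 ± 5.45 among Wutou libraries, a log2 difference of 0.44 (95% interval -0.01 to 0.88). EIF3A averaged 8.01 ± 2.68 and 5.19 ± 0.384 FPKM, a log2 difference of -0.50 (-1.02 to 0.01). It was -0.27 without replicate 1 of Sanfen longissimus and -0.65 without replicate 2. The fast-fibre markers summed to 5869 to 15340 FPKM in Sanfen longissimus, below all 3 Wutou longissimus libraries. Taken singly, TNNI2, ACTN3 and ATP2A1 were below in this way, while TNNC2, MYLPF and TNNT3 overlapped. The part of these markers in the differences was not tested. EIF3J read 1.80, 1.01 and 1.01 FPKM for Sanfen against 1.95, 1.87 and 1.90 for Wutou. These differences share the Wutou longissimus libraries with those between the muscles of Wutou, so the values for EIF3G and EIF3A in both comparisons are not separate observations.

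In gluteal muscle 16 factors were higher and 23 lower in Wutou, with a median of -0.06 against -0.09 for all loci. EIF4E2 was the 1 factor at an unadjusted p under 0.05, against 4.86% of loci. It read 4.66, 5.48 and 4.44 FPKM in Sanfen gluteal and 4.29, 2.91 and 3.12 in Wutou gluteal. All Wutou libraries were below all Sanfen ones, a log2 difference of -0.41 ± 0.17 (SE; adjusted p = 0.96 by limma). The slow-fibre markers summed to 3144 to 6646 FPKM in Sanfen gluteal, above all 3 Wutou gluteal libraries. TNNC1, TNNT1, TNNI1, MYL2 and MYL3 were each above in this way. MYOZ2 overlapped, at 51.0, 9.62 and 15.3 FPKM for Sanfen against 46.4, 18.1 and 20.6 for Wutou. The part of these markers in the differences was not tested. EIF2B4 followed with -0.27 (95% interval -0.61 to 0.07), or -0.17 after rescaling by the median of ratios, and EIF4H with 0.34 (-0.17 to 0.85), which was 0.07 without replicate 1 of Sanfen gluteal and 0.55 without replicate 2. Groups did not overlap for 4 of 39 factors, against 10.9% of loci: EIF4E2, and, higher in Wutou, EIF3E (15.4, 14.8 and 13.9 against 20.6, 19.1 and 16.8 FPKM), EIF1AX and EIF2S3.

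**Figure D4:**
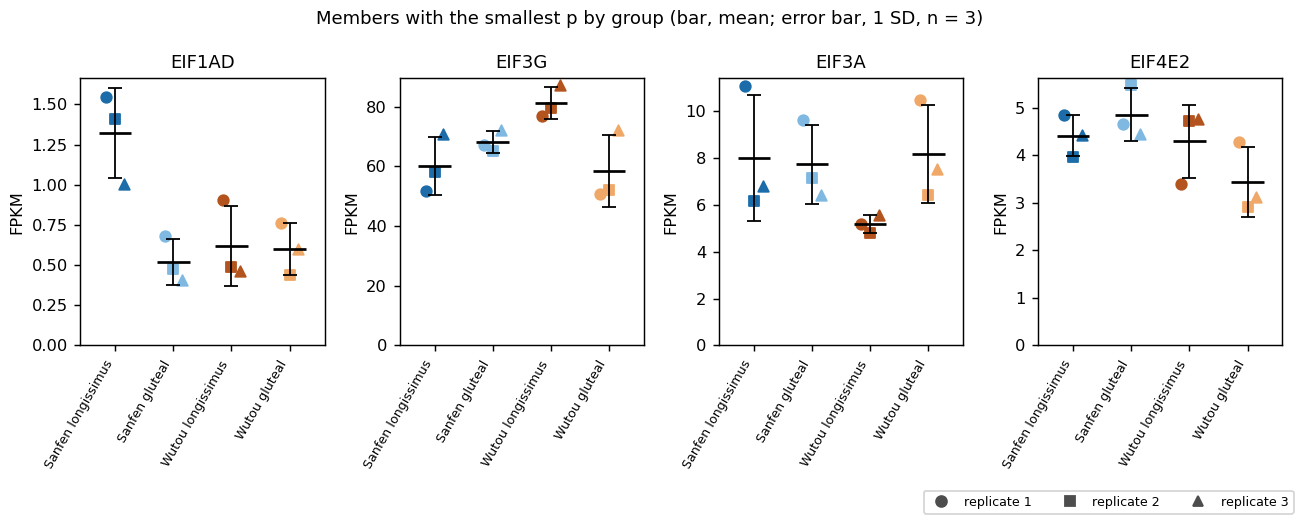
FPKM of EIF1AD, EIF3G, EIF3A and EIF4E2, the members with an unadjusted p under 0.05 in a comparison of 3 against 3 libraries, by group; symbols are libraries, bars means and error bars 1 SD (n = 3). EIF1AD is above 1 FPKM only in Sanfen longissimus, and Wutou longissimus holds the highest EIF3G (77.0 to 87.5 FPKM) and the lowest EIF3A (4.80 to 5.57 FPKM) values.

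Averaged over muscles, 18 factors were higher and 21 lower in Wutou, with a median of -0.02 against -0.07 for all loci, and limma listed 0 at an unadjusted p under 0.05, against 5.97% of loci. The smallest p belonged to EIF1AD (-0.22), EIF2AK4 (-0.16) and EIF4E2 (-0.23), and each interval included zero. For EIF1AD the filter had fixed the direction of the longissimus part of this average only. In gluteal EIF1AD averaged 0.520 FPKM for Sanfen and 0.601 for Wutou. EIF1AD was -0.42 with a pseudocount of 0.1 and -0.14 with quantile normalization. EIF2AK4 was -0.05 when the rows of its name were summed and -0.09 under either rescaling. EIF4E2 was -0.14 after rescaling by the median of ratios and -0.15 without replicate 1 of Wutou longissimus. For the interaction, the muscle difference in Wutou minus that in Sanfen, 16 factors were positive and 23 negative, with a median of -0.07 against -0.03 for all loci, and 2 factors were at an unadjusted p under 0.05, against 2.6% of loci. These were EIF1AD, at 0.60 (1.19 with a pseudocount of 0.1), and EIF3G, at -0.68 (95% interval -1.31 to -0.04). The adjusted p was 0.9998 by limma for both. The EIF1AD value includes the Sanfen longissimus libraries that carried it past the filter, which favoured its direction without fixing it. EIF3K came next at -0.70 (-1.47 to 0.07). Rescaling the libraries by the median of ratios turned the median of the factors from 0.05 to -0.05 between the muscles of Sanfen and from -0.06 to 0.04 between strains in gluteal, so these leanings depend on the scaling.

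**Figure D5:**
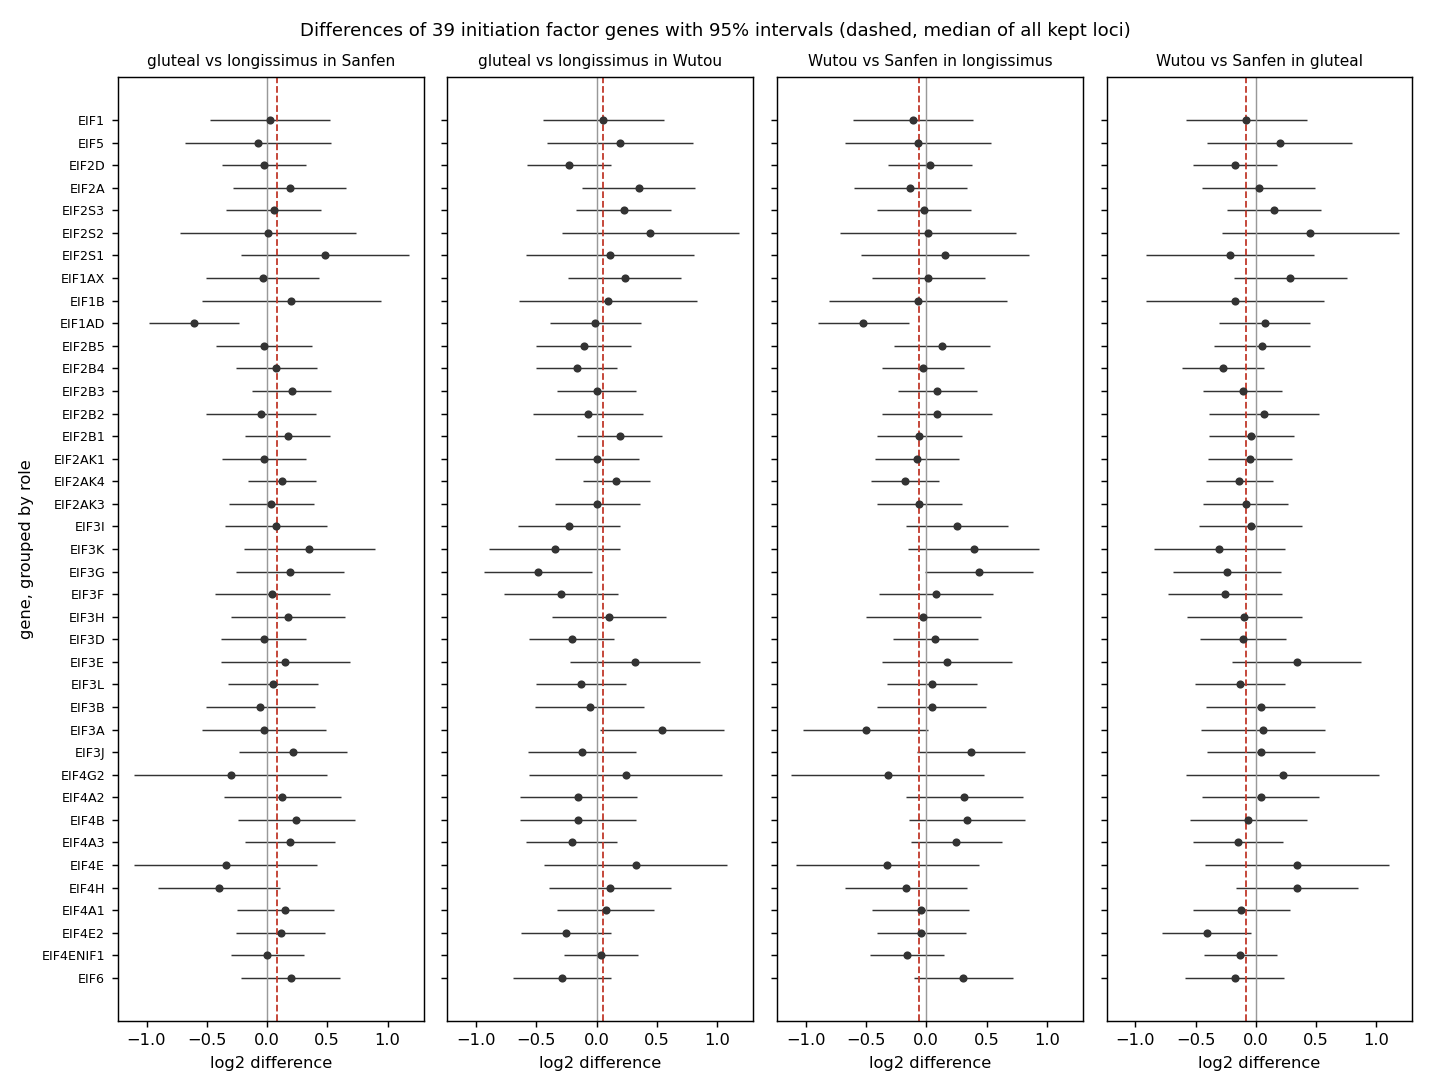
Log2 difference of each of the 39 tested factors, with its 95% interval, in the 4 comparisons of 3 against 3 libraries; the dashed line is the median of all 12408 tested loci. Most intervals include zero, and those that do not are of EIF1AD, EIF3G, EIF3A and EIF4E2.

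The inhibitors showed no called difference either. EIF4EBP1 differed by at most 0.39 in a comparison of 3 against 3 libraries, lower in gluteal than longissimus of Wutou (95% interval -0.99 to 0.22; 25.05 ± 7.12 against 18.4 ± 1.47 FPKM, SD, n = 3). For EIF4EBP2 the intervals were too wide to show any but very large differences, for instance -3.28 to 1.90 between the muscles of Sanfen.

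With all libraries the ribosomal proteins, the protein part of the ribosome, had medians further from zero than eIF3 in the 4 comparisons of 3 against 3, and limma called 0 of 76 in each of the 7. Between the muscles of Sanfen 74 of 76 were higher in gluteal (median log2 difference 0.27), beside 8 of 11 eIF3 genes (0.07). Without replicate 2 of Sanfen longissimus the counts were 40 of 76 (0.01) and 9 of 11 (0.12). Between strains in longissimus, 72 of 76 were higher in Wutou (0.31), beside 9 of 11 eIF3 genes (0.08), and without that library 41 of 76 (0.05) and 8 of 11 (0.19). Between the muscles of Wutou, 10 of 76 were higher in gluteal (-0.24), beside 3 of 11 eIF3 genes (-0.13), and between strains in gluteal 10 of 76 (-0.15) beside 4 of 11 (-0.10). After rescaling by the median of ratios 5 of 11 eIF3 genes were higher in gluteal of Sanfen and 7 of 11 higher in gluteal of Wutou than of Sanfen, so these 2 eIF3 counts changed side with the scaling. That the ribosomal proteins and eIF3 differ in any of these was not tested. The 2 ribosomal genes with the smallest p were RPS20, in the interaction (-1.58; adjusted p = 0.9998 by limma), and RPL22, between the muscles of Sanfen (0.85; adjusted p = 1 by limma), which was 0.51 without replicate 2 of Sanfen longissimus.

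Other parts of the pathway were read from lists. Of 18 genes of mTORC1 signalling and cap-dependent control, 16 were found by name and 15 tested, with 0 called by limma in any comparison. RPS6KB2, an S6 kinase downstream of mTORC1, read 13.0, 15.7 and 13.0 FPKM in longissimus of Wutou against 6.90, 10.4 and 10.2 in its gluteal muscle, so that the groups did not overlap, a log2 difference of -0.57 ± 0.20 (SE; adjusted p = 0.87 by limma). LARP1, which binds mRNAs of ribosomal proteins, read 2.41, 3.21 and 2.83 against 5.48, 3.36 and 4.07 FPKM in the same comparison, 0.46 ± 0.20 (adjusted p = 0.87 by limma), or 0.31 without replicate 1 of Wutou gluteal. MTOR itself averaged 14.5 FPKM.

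Of 8 genes that respond to phosphorylated eIF2 alpha, 7 were found by name and 3 tested, with 0 called by limma. DDIT3 read 6.27, 2.63 and 9.44 FPKM in Sanfen gluteal and 3.15, 1.52 and 1.74 in Wutou gluteal; the groups overlapped, and the log2 difference was -1.09 ± 0.45 (SE; adjusted p = 0.96 by limma). PPP1R15A, which directs the removal of that phosphate, averaged 9.65 FPKM and had its smallest p between strains in longissimus (-0.28; adjusted p = 0.88 by limma). It read 8.89, 15.8 and 8.48 FPKM for Sanfen and 8.97, 7.71 and 9.05 for Wutou. The difference was -0.02 without replicate 2 of Sanfen longissimus, its high library, -0.43 without replicate 3, and -0.10 with array weights. ATF4, the transcription factor at the head of this response, is listed at 0 in 11 of 12 libraries and at 0.276 FPKM in replicate 3 of Wutou longissimus. Whether this row covers the whole gene was not checked, so these values do not show that its transcript is absent.

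Of 13 genes of elongation, termination and recycling, 12 were found by name and 10 tested, with 0 called by limma. EEF1A2, the muscle form of the factor that delivers tRNA to the ribosome, averaged 922 FPKM, and EEF1A1, the widespread form, 168 FPKM. EEF1A2 was lower in gluteal averaged over strains by 0.35 on the log2 scale, or 0.17 with quantile normalization, without passing the test (adjusted p = 0.75 by limma). EEF1A1 had the smallest p of this list in the interaction, with 1.32 ± 0.46 (SE; adjusted p = 0.9998 by limma): it averaged 210 ± 24.8 and 142 ± 60.3 FPKM in longissimus and gluteal of Sanfen, and 126 ± 42.8 and 196 ± 26.8 in those of Wutou (SD, n = 3). Both means stood above that of every initiation factor.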

How the data were processed

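The deposited table holds FPKM for each locus, according to its header line, as made by the authors. The submitters' processing notes list the trimmer cutadapt and the aligners Bowtie2 and TopHat2, with no version; the genome build and the reads per library are not given in the sources used here. From these values log2(FPKM + 1) was computed, loci under 1 FPKM in more than 9 of 12 libraries were left out, and limma 3.58.1 (R 4.3.3) fitted 1 model over 4 groups with a variance trend. FPKM are not counts, and the pseudocount of 1 understates changes of low genes. The average over muscles treated libraries of a strain with the same replicate number as a random block. The other comparisons used group means only, without a block. Replicate numbers were checked for pairing: deviations of same-numbered libraries correlated at 0.25, 0.11 and 0.16 in Sanfen, all above the limit of 0.1 set for pairing. In Wutou the value for replicate 3 was under that limit, at 0.071. Within each role the 2 genes of highest mean, in each comparison the 3 of smallest p, and fixed paralogs are named. Of the other lists, the 2 genes of smallest p are named. Members and lists were chosen with earlier results of these data known. The alternatives were another pseudocount, other filters, rescaling, array weights, summed rows, the block, and each library left out.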

Additional observations from a re-analysis of the deposited data

How the results depend on the processing

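Under 20 or 21 alternatives for each comparison, limma called 0 of the tested factors, also with no filter, where all 43 were tested; a filter at 5 FPKM left 26. Their smallest adjusted p ran from 0.459 to 1 over comparisons and alternatives. With the replicate block the count called stayed at 0, and the block changed no call; in Wutou same-numbered libraries correlated at 0.18, 0.16 and 0.071, with 1 value under the limit. Every same-numbered pair of a strain correlated more than its other pairs (-0.15 to -0.00083 in Sanfen, -0.17 to 0.013 in Wutou), a hint from the data only. The strain average used the numbers as a block in both strains, and without it the count called was 0 as well. The median difference of the factors moved by more than the spread between libraries in 8 cases. Rescaling by the median of ratios gave -0.05 between muscles in Sanfen, -0.09 averaged over strains, 0.04 between strains in gluteal and 0.07 averaged over muscles, and quantile normalization 0.03 between strains in gluteal. Between muscles in Wutou it was -0.08 with the filter at 5 FPKM and -0.10 without replicate 2 of Wutou longissimus, and the interaction gave 0.04 without replicate 3 of that group. The causes were not tested. EIF1AD could not be tested at 5 FPKM. Depth is unknown, so low members such as EIF1B and EIF1AD carry an unknown counting error.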
